A study of Homo sapiens with 6 samples.

Results

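Carbonic anhydrases are zinc enzymes that convert carbon dioxide and water to bicarbonate and a proton, and so set the pH inside and around the cell. Sulfonamides bind the zinc of the active site, and indisulam, the drug that the resistant cells of this study had been exposed to, is an aryl sulfonamide that binds these enzymes as well as tethering RBM39 to DCAF15. The family is divided by where the proteins sit. CA2 and CA13 are cytosolic enzymes, CA5B is mitochondrial, CA4 is held on the outer membrane by a lipid anchor, and CA9, CA12 and CA14 span the membrane with the catalytic domain outside. CA8 and CA11 are related proteins that have lost the zinc ligands needed for catalysis. CA9 is a classical target of the hypoxia-inducible factors and, with CA12, is known for its part in the acidity of solid tumors.

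The genes examined were the 9 members CA2, CA4, CA5B, CA8, CA9, CA11, CA12, CA13 and CA14, among 20033 protein-coding genes, and they were taken as a named list of family genes. ATAC-seq, in which the Tn5 transposase cuts and tags open chromatin, had been run on SKNAS (SK-N-AS) cells, a human neuroblastoma line that was grown as xenografts in mice. The naïve cells were cultured from a tumor of a vehicle-treated mouse, and the R1 and R2 cells from tumors that had relapsed a second time and were taken during the third cycle of indisulam. All 3 cell types were expanded in dishes, received no further drug according to the labels, and gave 2 libraries each, from 100000 cells per library. The labels do not say whether the 2 libraries were separate cultures, so every p-value below measures the spread between these libraries only. Each cell type is a single tumor-derived line, so a difference between R1 or R2 and naïve cells cannot be told apart from a difference between individual lines. What was read here are the lists of peaks, the regions with more cut sites than the background, as called in each library separately.

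The lists differed greatly in length. They held 154926 and 115694 peaks in the naïve libraries, 340558 and 292030 in the R1 libraries, and 67558 and 73484 in the R2 libraries. The background rate recovered from each list, which is proportional to the depth of the library, was 9.34 and 6.39 times as high in the R1 libraries as in the first R2 library, against 2.69 and 1.59 times in the naïve libraries. A peak needed at least 2.27 and 2.58 times the background in the R1 libraries, 3.93 and 5.18 times in the naïve libraries, and 7.06 and 6.68 times in the R2 libraries. The absence of a peak in R2 therefore carries less information than its absence in R1. Peaks lay within 10 kb of all 9 adrenergic neuroblast markers in all 6 libraries, and at the canonical starts of 6 of them. Of 8 markers of the mesenchymal state 7 had a peak within 10 kb in all 6 libraries and 6 had one at the start. Of 7 markers of blood, endothelial and epithelial cells 6 had a peak within 10 kb in all 6 libraries, but none had one at its canonical start in all 6, and 2 had none there in any library.

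Peaks that overlapped a member or lay within 10 kb of either end were collected. There were 433 of them over the 6 lists. By this rule a member could be credited with a peak at the start of a neighboring gene. Peaks with any part within 1 kb of the start of each gene's canonical transcript were therefore also read separately. A peak in the wider window was present for 8 and 7 of the 9 members in the naïve libraries, for all 9 in both R1 libraries and for 7 in each R2 library. The corresponding shares of all protein-coding genes were 82.9% and 80.0% in naïve, 93.1% and 91.8% in R1, and 76.1% and 77.1% in R2 cells. At the canonical start, 7 and 5 members had a peak in the naïve libraries, 8 and 9 in the R1 libraries, and 5 and 3 in the R2 libraries. For all genes these shares were 71.5% and 67.8%, 84.7% and 83.0%, and 61.1% and 62.2%. The order of the cell types among the members was thus that of all genes and of the depth of the libraries.

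**Figure D1:**
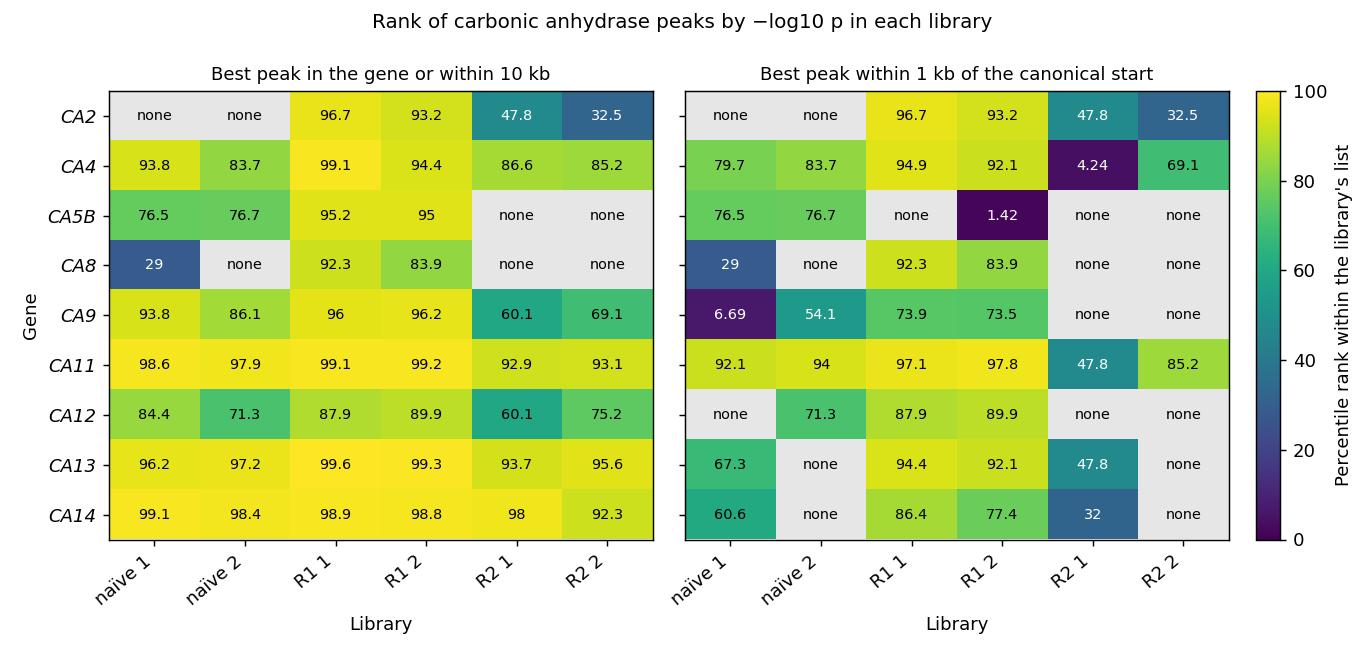
Percentile rank by −log10 p, within each library's own list, of the best peak in the gene or within 10 kb (left) and of the best peak within 1 kb of the canonical start (right), for 9 genes (rows) and 6 libraries (columns). Grey cells have no peak. CA2 is empty in both naïve libraries and filled in the 4 resistant ones, and CA5B is empty in both R2 libraries.

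For 3 members the upstream sequence is given because the peaks at their starts differed between libraries and because 2 of them, CA9 and CA12, are known as hypoxia-responsive genes. Each line is the 250 bases before the start of the gene, 5′ to 3′ on the strand of the gene, from RefSeq on GRCh38.p14. Capitals mark the hypoxia response core, ACGTG or GCGTG on either strand, and the AP-1 motif TGANTCA.
CA5B, plus strand of chrX:15738020-15738269: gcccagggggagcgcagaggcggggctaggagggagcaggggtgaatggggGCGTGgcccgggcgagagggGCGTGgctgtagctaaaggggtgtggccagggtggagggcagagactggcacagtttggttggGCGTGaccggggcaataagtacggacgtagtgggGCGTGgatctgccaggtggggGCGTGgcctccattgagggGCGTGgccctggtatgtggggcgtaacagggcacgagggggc
CA9, plus strand of chr9:35673678-35673927: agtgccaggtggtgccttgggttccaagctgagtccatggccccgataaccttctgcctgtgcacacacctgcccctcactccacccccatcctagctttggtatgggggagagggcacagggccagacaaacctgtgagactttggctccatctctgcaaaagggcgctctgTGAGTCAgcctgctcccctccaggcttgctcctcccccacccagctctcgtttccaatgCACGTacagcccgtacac
CA12, minus strand of chr15:63381847-63382096: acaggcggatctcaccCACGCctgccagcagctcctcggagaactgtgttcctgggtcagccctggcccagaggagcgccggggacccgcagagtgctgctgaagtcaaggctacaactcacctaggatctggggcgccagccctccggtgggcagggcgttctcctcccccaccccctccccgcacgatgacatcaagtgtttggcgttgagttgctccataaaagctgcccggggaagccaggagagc
The CA5B sequence held the hypoxia core 6 times, all as GCGTG, in a G-rich run, and at least 6 matches occurred in 0.646% of 35116 promoters of the same length. Counted so that -1 is the base before the start, the CA9 sequence held 1 core at position -18 and 1 AP-1 motif at -77, and the 2 matches did not overlap. The CA12 sequence held 1 core at position -234. A core was present in 43.2% of the promoters and the AP-1 motif in 6.57%, so a single core is a common match. In the same window CA11 had 1 core, and CA4 and CA14 had none. CA4 had the letters TATAAA at position -29, which 10.7% of the promoters held. CA9 and CA14 were poor in CpG, with observed over expected ratios of 0.23 and 0.15 against a median of 0.56 over all promoters, whereas CA4 and CA5B had 0.63 and 0.64. A match describes the letters and not the binding of a factor.

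CA2, the fast and widely distributed cytosolic enzyme, was the 1 member that divided the naïve from the resistant libraries by the presence of a peak. It lies on the plus strand of chr8:85463968-85481493 (hg38), and no other protein-coding gene reaches into its window. Neither naïve library had a peak anywhere within 10 kb of the gene. Each of the 4 resistant libraries had exactly 1 peak, and all 4 lay at the start of the gene. The summits held 120 and 58 tags in R1 and 10 and 9 tags in R2, where a tag is a shifted and extended read that covers the summit. Over the background of the respective library these were 15.1 and 10.7 times in R1 and 11.8 and 10.0 times in R2. The R1 peaks were broad, at 1309 and 1696 bp with summits 708 and 684 bases before the start, and they ranked at the 96.7 and 93.2 percentile of their lists. The R2 peaks were 200 and 239 bp wide and ranked at the 47.8 and 32.5 percentile. The first lay 748 bases before the start and the second 265 bases after it, in intron 1, so the 2 R2 peaks did not overlap each other, while the R1 peaks covered both places.

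The missing CA2 peaks were set against the depth of the naïve libraries. Scaled by the background rates, the 4 resistant summits would have held between 22.9 and 34.6 tags at the depth of the first naïve library, where 9 tags were enough for a call. At the depth of the second naïve library they would have held between 13.5 and 20.4, where 7 were enough. Here and below, such scaling used only summits that were called and took the enrichment over background as equal between libraries. Reads were not counted at places without a peak, so whether depth accounts for a missing peak was not tested. A peak in all 4 resistant and neither naïve window was found for 83 genes, 0.414% of all, and CA2 was the only member among them. In lists of equal length, made of the top 67558 peaks of each list, the same 4 libraries held the CA2 peak.

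Because it lacks a peak in 2 libraries, CA2 could not enter the test between cell types, and its pattern is given as a description. The median rank of the 17 fitted genes within 5 Mb of CA2 was taken in each library and averaged by cell type. It also stood higher in the resistant cells, by 12.9 points in R1 and 3.01 in R2. The part of this difference in the CA2 pattern was not tested.

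CA13, the other cytosolic enzyme, lies on the same chromosome at chr8:85220587-85284073, on the plus strand. Its best window peak was in all 6 libraries at the start of RBIS, a ribosome biogenesis factor whose start lies 58 bases from the summit. This peak held 39 and 33 tags in naïve, 273 and 162 in R1, and 23 and 26 in R2 cells. Its summits, centered at 85220432, also lie just before the annotated beginning of CA13 at 85220587. The canonical CA13 transcript starts further on, at 85245458. With all annotated transcript starts counted, CA13 had a peak within 1 kb in all 6 libraries. At the canonical start of CA13 itself a peak was called in 4 libraries. It held 17 tags in the first naïve library, 87 and 53 in R1 and 10 in the first R2 library, or 7.43, 11, 9.75 and 11.8 times the background. The second naïve and the second R2 library had none there. Scaled to those libraries, the 4 summits would have held at least 10.0 tags in the second naïve library, where 7 were needed, and at least 6.68 in the second R2 library, where 6 were needed.

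CA5B, the mitochondrial enzyme, showed the opposite order at its start. The gene is annotated on the plus strand of chrX:15688830-15788411, and its canonical transcript begins at 15738270. The promoter printed above carried a peak of 19 and 15 tags in the naïve libraries, at 8.31 and 11.1 times the background and at the 76.5 and 76.7 percentile of the lists. In R1 the second library had a peak of 16 tags, which is 2.94 times the background and the 1.42 percentile, and the first had none. Neither R2 library had a peak anywhere in the CA5B window. Scaled to the depth of the first R1 library, the naïve summits would have held 66.0 and 88.2 tags, where 18 were enough for a call. A peak at the canonical start in both naïve libraries and not in the first R1 library was found for 9 genes, 0.0449% of all. This pattern follows the CA5B values and sets aside the second R1 library, which had a peak there. The first R1 list is also the longest, so the share is given as a description only. For R2 the margin was narrow, since the naïve summits scaled to between 7.06 and 9.98 tags where 6 were needed.

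The window of CA5B as a whole did not follow its start. In R1 its best peak held 95 and 69 tags and lay at the start of ZRSR2, a splicing factor gene that follows CA5B, within 65 bases of it. The second naïve library had a peak of 9 tags at this place. CA5B lacks a peak in both R2 libraries and, like CA2, was not tested between cell types. The median rank of the 30 fitted genes within 5 Mb stood higher in the resistant cells, by 13.6 points in R1 and 14.1 in R2. The start peak of CA5B was instead the lower one in R1. CA5BP1, a related pseudogene at chrX:15681053-15703192, overlaps the annotated beginning of the gene but not this start.

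**Figure D2:**
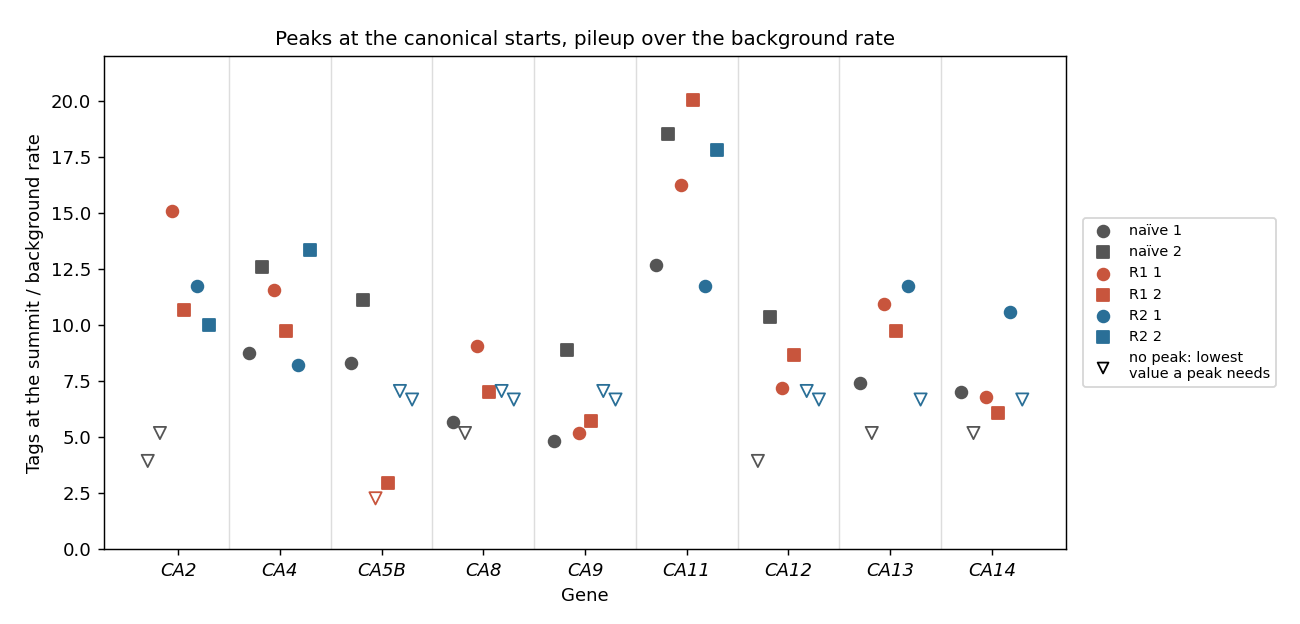
Tags at the summit divided by the background rate (y axis) for the best peak within 1 kb of the canonical start of each gene (x axis), 1 point per library. Open triangles mark libraries without a peak at the lowest value that a call needs there. For CA5B the naïve points lie at 8.31 and 11.1, the single R1 point lies at 2.94 and the R1 triangle at 2.27. For CA2 all 4 resistant points lie between 10.0 and 15.1, above the naïve triangles at 3.93 and 5.18.

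CA9, CA12 and CA14 are the transmembrane enzymes, and CA9 and CA12 had no start peak in either R2 library. CA9 lies on the plus strand of chr9:35673928-35681159. The peak over its printed promoter held 11 and 12 tags in naïve and 41 and 31 in R1 cells, at 4.81, 8.88, 5.16 and 5.70 times the background. Neither R2 library had a peak there, and the scaled summits of the other 4 libraries, between 4.09 and 7.98 tags, fell on both sides of the 6 that a call required. Only the summit of the second naïve library scaled above 6, to 7.55 and 7.98 tags. Whether the CA9 peak was lost in R2 could therefore not be decided at this depth. The best peak of the CA9 window lay elsewhere, at the start of ARHGEF39 in 5 libraries, with 32 and 18 tags in naïve, 107 and 81 in R1 and 12 in the second R2 library. In the first R2 library it was a peak of 11 tags near the start of TPM2, a muscle-type tropomyosin gene.

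CA12, on the minus strand of chr15:63321378-63381846, had no other protein-coding gene in its window. Its start carried 14 tags in the second naïve library and 57 and 47 in R1, or 10.4, 7.18 and 8.65 times the background, and no peak in the first naïve library or in R2. Scaled to the first naïve library, these summits would have held between 16.4 and 23.7 tags, where 9 were needed. The 2 naïve libraries thus differed in the call at this start. For R2 the scaled values ran from 6.10 to 9.31 where 6 were needed. The peak that all 6 libraries shared lay in intron 2, 9378 bases after the start. It held 22 and 13 tags in naïve, 47 and 36 in R1, and 11 and 13 in R2 cells, and in R2 it was the only peak of the window.

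The number of peaks over CA12 spread further than for any other member. The window held 8 and 2 peaks in naïve, 51 and 43 in R1, and 1 and 1 in R2 cells, against medians over all genes of 3 and 2, 9 and 8, and 2 and 2. In lists of equal length the CA12 counts were 1 and 2, 3 and 2, and 1 and 1. Most of the R1 peaks were thus ranked below the top 67558 of their lists. For all 9 members together, the equal lists held 34 and 44 peaks in naïve, 27 and 32 in R1, and 40 and 36 in R2 windows.

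CA14, on the plus strand of chr1:150257251-150265078, had a start peak in 4 libraries, with 16 tags in the first naïve library, 54 and 33 in R1 and 9 in the first R2 library. These were 6.99, 6.80, 6.07 and 10.6 times the background. Its best window peak was in all 6 libraries at the start of APH1A, a subunit gene of γ-secretase, 45 bases from it, with 62 and 39 tags in naïve, 199 and 137 in R1, and 34 and 21 in R2 cells. A peak 2256 bases before the CA14 start was also shared by all 6 libraries, at 16 and 13, 85 and 51, and 9 and 11 tags. The second naïve and the second R2 library had no peak at the canonical start. Scaled to those libraries, the 4 start summits would have held 8.20 to 14.3 tags in naïve, where 7 were needed. In R2 they would have held 5.46 to 9.51, where 6 were needed.

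**Figure D3:**
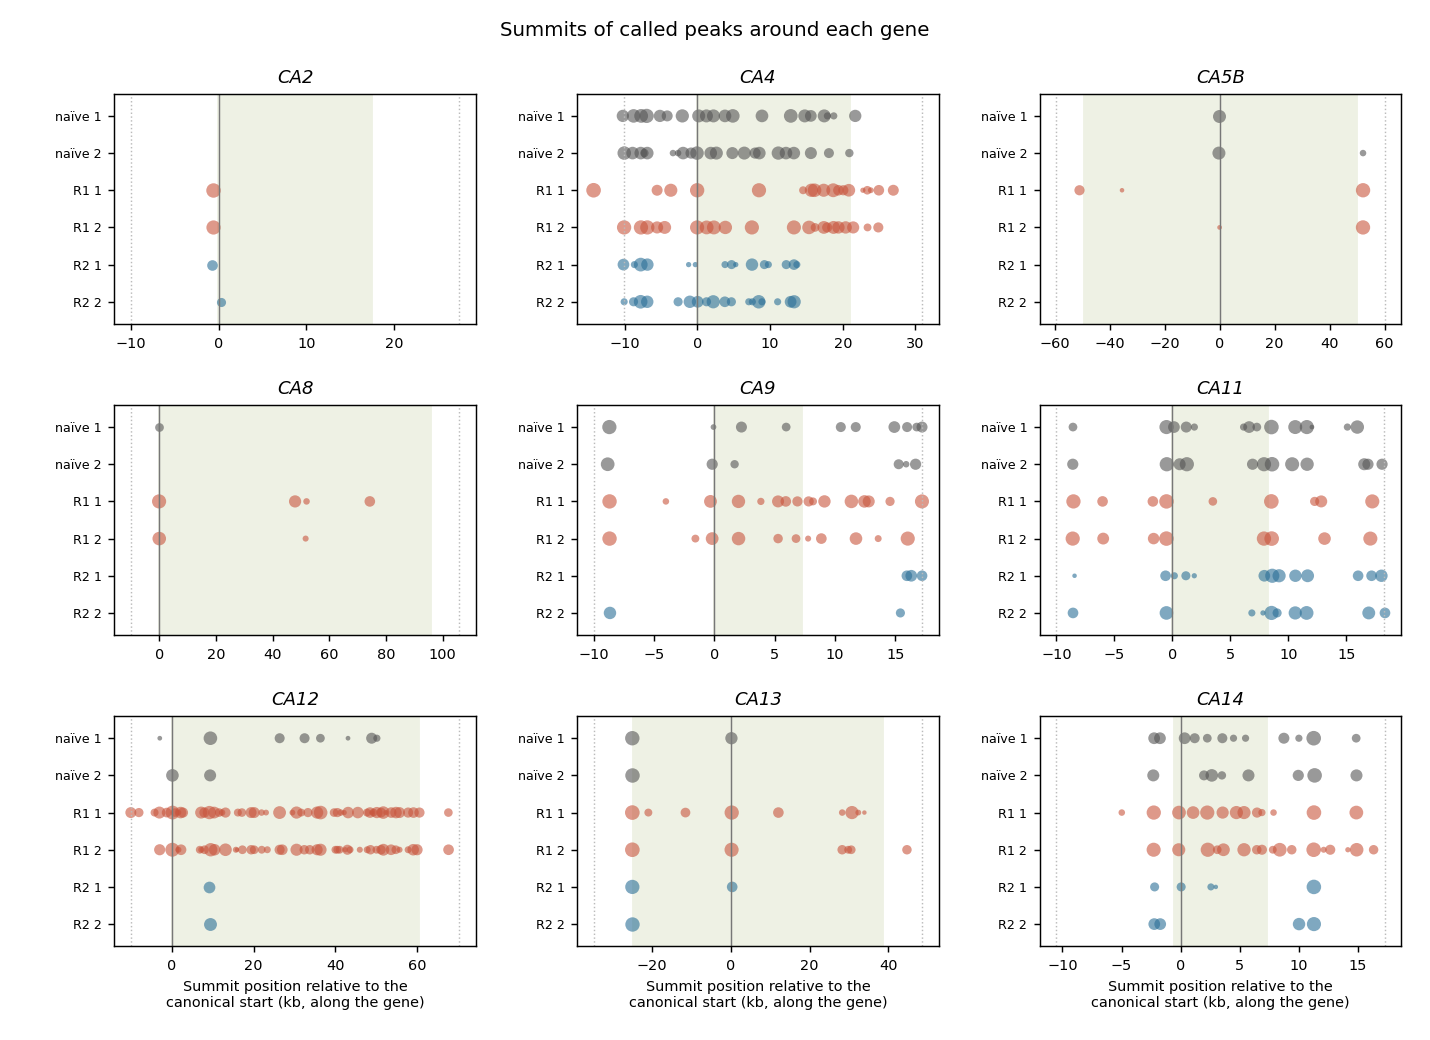
Positions of the summits of all called peaks around each gene, in kb from the canonical start along the gene (x axis), with 1 row per library and naïve in grey, R1 in red and R2 in blue. Larger points have a higher rank in their list, shading marks the gene and dotted lines the window. The CA12 window fills up in the 2 R1 rows, with 51 and 43 peaks, and holds 1 peak in each R2 row.

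CA4, the lipid-anchored enzyme, and CA11, a protein without catalytic activity, were the 2 members with a peak at the canonical start in all 6 libraries. Over all genes the share with such a peak was 54.7%. CA4 lies on the plus strand of chr17:60149942-60170899, and its start peak held 20 and 17 tags in naïve, 92 and 53 in R1, and 7 and 12 in R2 cells. Over the background these were 8.74, 12.6, 11.6, 9.75, 8.23 and 13.4, and the groups overlapped. In the first naïve and the second R2 library only the edge of the CA4 peak came within 1 kb. Its summits there lay 2069 and 1032 bases before the start. The gene had more window peaks than the other 8 in the naïve and R2 libraries, with 20 and 22 window peaks in naïve, 18 and 21 in R1, and 15 and 18 in R2 cells. In the first R1 library neighboring peaks were joined into broad ones. The start peak was 6082 bp wide there, and the best window peak had its summit 14271 bases before the start, outside the 10 kb that its edge reached into.

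CA11 lies on the minus strand of chr19:48637946-48646187. Its start peak had its summit about 500 bases upstream in every library and held 29 and 25 tags in naïve, 129 and 109 in R1, and 10 and 16 in R2 cells. At 12.7, 18.5, 16.2, 20.1, 11.8 and 17.8 times the background it was the highest start peak of the family in 5 of the 6 libraries, and in the first R2 library it tied with CA2 and CA13 at 10 tags. The best peak of its window stood near the start of DBP, a circadian transcription factor gene, 241 bases from it, with 55 and 36, 217 and 155, and 22 and 22 tags. CA8, the other member without catalytic activity, which binds the inositol trisphosphate receptor, lies on the minus strand of chr8:60185412-60281400. Its start peak held 13 tags in the first naïve library and 72 and 38 in R1, at 5.68, 9.07 and 6.99 times the background. The other 3 libraries had no peak in the whole window. CA5B and CA8 were the 2 members with a peak in another cell type and none in R2, and 13.4% of all genes had this pattern. Scaled to R2, the CA8 start summits would have held between 4.83 and 8.15 tags, where 6 were needed. Scaled to the second naïve library, they would have held between 7.68 and 12.2 tags, where 7 were needed.

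Resistant and naïve cells were then compared over all genes. For this the best window peak of each gene was ranked by −log10 p among the 14213 genes with a peak in all 6 libraries, 70.9% of all, and the percentile ranks were fitted with limma. The members CA4, CA9, CA11, CA12, CA13 and CA14, 6 of 9, entered this fit. None of them was called in the comparison of resistant with naïve cells at an adjusted p of 0.05, where 301 genes (2.12%) were called higher and 181 (1.27%) lower, 3.39% in all. None was called for R1 against naïve (7.07% of genes), for R2 against naïve (0.823%) or for R1 against R2 (1.36%). At an unadjusted p under 0.05 the members were CA9 for all resistant cells, CA13 for R1, CA9 and CA11 for R2, and CA12 for R1 against R2. The corresponding shares of all genes were 23.7%, 26.9%, 18.3% and 20.7%. The R1 and R2 comparisons share the naïve libraries.

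CA9 stood at the 39.1 and 25.4 percentile in naïve, 16.9 and 25.4 in R1, and 11.6 and 14.9 in R2 cells. The R2 values lay below both naïve values, and the second R1 value came within rounding of the second naïve one. The difference was -15.0 ± 6.34 points (SE, 95% interval -29.6 to -0.455) with an unadjusted p of 0.0447 and an adjusted p of 0.199 by limma. For R2 alone it was -19.0 points, adjusted p = 0.222. Leaving out the first naïve library brought the difference of all resistant cells to -8.30 points, and leaving out the second to -21.9. These ranks are those of the ARHGEF39 and TPM2 starts and not of the CA9 promoter.

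CA11 stood at 81.8 and 79.2 in naïve, 73.5 and 79.2 in R1, and 63.8 and 62.1 in R2 cells. It was the 1 member of the 6 whose resistant values all lay below the naïve ones, by a margin within rounding in the second R1 library, and 14.7% of all fitted genes did so. No member lay wholly above, against 12.6% of the genes. The difference was -10.9 ± 5.48 points, adjusted p = 0.266 by limma, and -17.6 points for R2, adjusted p = 0.197. The median rank of genes within 5 Mb differed by -10.4 points in R1 and 1.79 in R2. With the neighborhood median taken off, the difference of all resistant cells went from -10.9 to -6.55 points. With peaks of the gene body alone, it was -34.0 points (adjusted p = 0.149).

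CA14 stood at 87.9 and 84.3 in naïve, 65.8 and 69.4 in R1, and 90.4 and 58.5 in R2 cells. Both R1 values lay below both naïve values, while the R2 libraries fell on either side. The difference of R1 from naïve was -18.5 points with a 95% interval from -40.7 to 3.71, adjusted p = 0.258 by limma. Without the second R2 library it was -18.0 points with an adjusted p of 0.0433, so this library decided the call, in a setting where 12.6% of all genes were called. The difference of all resistant cells was -15.1 points, and it was -22.2 without the first R2 library and -6.93 without the second.

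CA13 stood at 55.7 and 73.2 in naïve, 88.6 and 82.4 in R1, and 67.6 and 74.5 in R2 cells. This was read at the peak near the RBIS start and the annotated beginning of CA13. Both R1 values lay above both naïve values, by 21.0 points on average (95% interval 3.17 to 38.9, adjusted p = 0.130 by limma). The median rank of the 16 fitted genes within 5 Mb stood 15.6 points higher in R1. With the neighborhood median taken off, the CA13 difference of all resistant cells went from 13.8 to 2.69 points. It was 5.02 points without the first naïve library and 22.3 without the second.

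CA12 stood at 13.8 and 10.8 in naïve, 1.49 and 3.97 in R1, and 11.6 and 19.9 in R2 cells. The R1 values lay below those of the other 4 libraries, and R1 differed from R2 by -13.0 points (95% interval -23.9 to -2.17, adjusted p = 0.183 by limma). These ranks are not those of 1 place. The best peak lay at the CA12 start in the second naïve and both R1 libraries. It lay in intron 2 in the first naïve and both R2 libraries. CA4 stood at 39.1 and 21.7 in naïve, 71.9 and 12.8 in R1, and 42.2 and 35.6 in R2 cells. The 2 R1 libraries were the highest and the lowest of the 6. The value of the first R1 library is that of the joined peak with its summit 14271 bases before the start. All 6 libraries had a peak at that place (48 and 34 tags in naïve, 213 and 142 in R1, 30 and 21 in R2). Only in the first R1 library did it reach into the window. The difference of resistant from naïve cells, 10.3 ± 15.3 points, turned to -4.53 without the first R1 library.

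**Figure D4:**
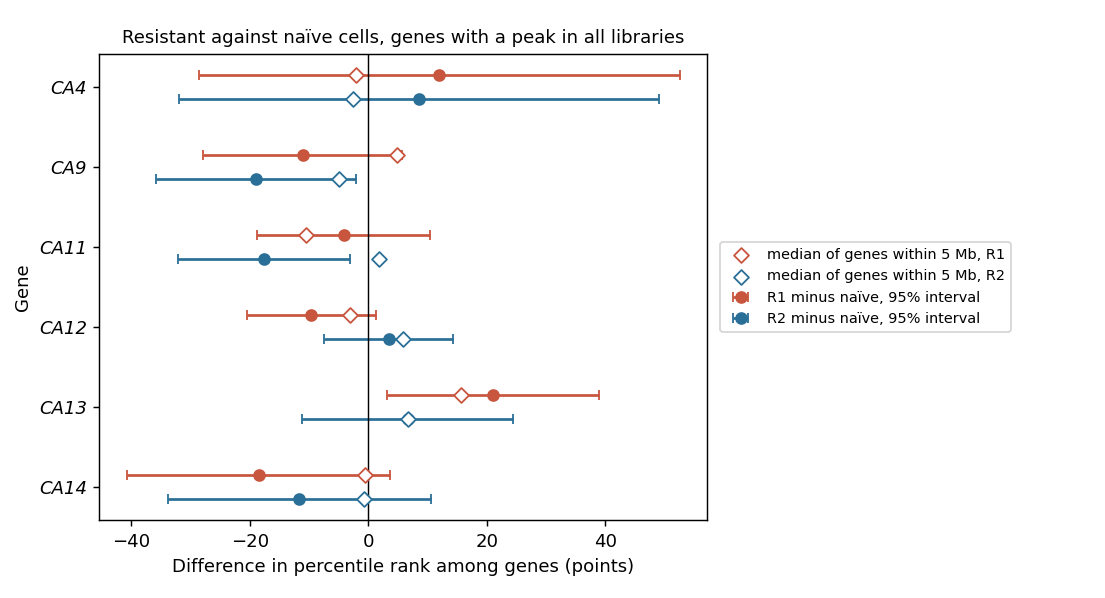
Difference in percentile rank from naïve cells, in points (x axis), for the 6 genes with a peak in every library (y axis), with R1 in red and R2 in blue. Filled points are limma estimates with 95% intervals, and open diamonds are the differences in the median rank of the genes within 5 Mb. All intervals but those of CA13 for R1 and of CA9 and CA11 for R2 span 0, and none of the 12 passed 0.05 after adjustment.

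Genes with related tasks were read in the same fit. Of the 6 other carbonic anhydrase genes 2 had a peak in all libraries, and neither was called. In the list of bicarbonate and proton transport 20 of 27 genes were tested. Beside 2.12% of all genes called higher and 1.27% lower, 1 of this list rose in the resistant cells and none fell. The median difference was 7.29 points, against -6.98 for the 6 members and -0.36 for all genes. The gene that rose was SLC16A7, the monocarboxylate transporter MCT2. It stood at 4.33 and 0.362 in naïve, 34.7 and 31.5 in R1, and 16.7 and 25.0 in R2 cells, a difference of 24.6 ± 5.19 points with an adjusted p of 0.0467. The resistant values did not overlap the naïve ones. Under other settings its adjusted p ran from 0.0152 to 0.337 and passed 0.05 in 7 of 16, the reported setting included, and leaving out any 1 naïve or R1 library ended the call.

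Of 26 genes of the hypoxia response 24 were tested, with a median difference of -3.11 points. Beside 2.12% of all genes called higher and 1.27% lower, 1 of this list rose and none fell. This was NDRG1, a stress-induced gene that hypoxia raises in many cell types. It stood at 16.2 and 51.0 in naïve, 99.6 and 99.7 in R1, and 98.1 and 95 in R2 cells. The difference was 64.5 ± 8.78 points, with an adjusted p of 0.0234 by limma. It was called in 14 of 18 settings, the reported one included, with adjusted p-values from 0.00216 to 0.237, and leaving out either R1 library ended the call (0.135 and 0.122). NDRG1 lies on chromosome 8 as CA2, CA8 and CA13 do. The median rank of the genes within 5 Mb of NDRG1 stood 30.7 points higher in the resistant cells. With that median taken off, the difference was 33.8 points and the adjusted p 0.161.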

How the data were processed

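The ATAC-seq measurements cover 3 cell types with 2 libraries each, grouped by their labels. The authors used BWA 0.7.12-r1039 for alignment, Picard 1.65 for duplicates and SAMtools 1.3.1 for filtering, dropped mitochondrial reads, shifted read ends for the Tn5 cut, and called peaks per library with MACS2 2.2.7.1 at a q-value limit of 0.01. Versions come from the submitters' processing notes. The methods name hg19 and the notes also name hg38. On all 24 chromosomes the last peak lay within the hg38 length, so genes were placed by hg38 and GENCODE release 44.

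In the deposited lists each peak has a fold (a ratio of its tags to the background) together with −log10 p-value and −log10 q-value columns, all written by the authors' peak caller. The folds equal tags + 1 divided by background + 1, with 100% of the recovered tags within 0.02 of a whole number. One rate covers a whole list, so fold and p rank peaks alike. The reads were not used, and the intervals cover the spread between libraries only.

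A gene's value was its best peak by −log10 p, overlapping the gene or 10 kb at either end by at least 1 base, as a percentile among the 14213 genes with a peak in every library. limma 3.58.1 (3 groups, trended variance, two-sided) was fitted over all of them, and p-values were adjusted by Benjamini-Hochberg at 0.05. The study gives no test for these data. With 2 libraries a group no exact permutation test could reach 0.05. Depth recovery and the fit were tested on simulated data. For resistant against naïve cells the fit recovered 62.5% of 200 genes given a log2 change of 1.5. It called 0.00714% of the unchanged genes. The spread between libraries was set in the simulation and not taken from the data. A gene that was not called may therefore still differ. Same-numbered libraries deviated from their group means with correlations of 0.067, -0.0233 and 0.00982, and the main fit did not pair them. Whether same-numbered libraries were prepared together cannot be decided from these values.

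All 9 members are named. From each other list (carbonic anhydrases, transport, hypoxia) the rule was to name at most the 2 genes per direction with the largest difference past the threshold for resistant against naïve cells, and a gene whose start lay closer to a peak was named. The members and lists were chosen with earlier results of these data known. Promoters were searched on both strands for the hypoxia core ACGTG or GCGTG, the GC box GGGCGG, the CAAT box CCAAT, the TATA box TATAAA and the AP-1 motif TGANTCA. Sequences of members on chromosome 8 are not shown. Alternatives were the gene body, transcript starts within 1 kb, a −log10 q of at least 5, a peak fraction of 0.5, ranking by fold, ranks within the list, all genes with a peak, normal scores, a replicate block, the median of genes within 5 Mb taken off, and leaving out each library. Lists of equal length, and repeats of the ranking of all genes with a peak, were added after seeing the data. That ranking puts a missing peak at the lowest rank, so it gives no test of CA2, CA5B or CA8, whose values there are set by missing peaks. Python 3.11.15, NumPy 2.4.6, pandas 2.3.3, SciPy 1.17.1 and matplotlib 3.10.9 were used.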

Additional observations from a re-analysis of the deposited data

How the results depend on the processing

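The number of genes called depended strongly on the setting. For resistant against naïve cells it was 482, and it became 0 with percentiles within each list, 1202 with normal scores, 116 with the replicate block, 0 with the median of genes within 5 Mb taken off, and 0 to 768 leaving out 1 library. For R1 against naïve it was 1005, and became 0, 1669 and 35 with list percentiles, normal scores and the 5 Mb median, and 7 to 1844 leaving out 1 library. For R2 against naïve it was 117, and became 74 with starts within 1 kb, 1294 with list percentiles, 386 with normal scores, 0 with the replicate block, 12 with the 5 Mb median, and 0 to 154 leaving out 1 library. For R1 against R2 it was 194, and became 129, 8635, 550, 71 and 52 under the same 5 settings in that order, and 0 to 144 leaving out 1 library. Ranks within a list move with its length, and the cause of the other moves was not tested. The 10 counts of 0, all from limma, stood beside 1850 to 3208 genes at an unadjusted p under 0.05.

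The members with a peak in all libraries numbered 6, 3 with starts within 1 kb, and 6 without any 1 library. The members without overlap numbered 1, and 0 with the gene body, with the peak fraction of 0.5 and with list percentiles, 3 among all genes with a peak, and 1 to 3 leaving out 1 library. Over all genes the share without overlap was 27.3%, and 27.4%, 27.2%, 7.67% and 28.2% in these 4 settings in that order. It was 49.4% and 49.0% without the first or second naïve library and 30.3% to 38.3% without another. CA4 changed direction from 10.3 to -2.0 with the gene body, -1.53 with starts within 1 kb, -5.11 with the peak fraction and -4.53 without the first R1 library, and leaving out 1 library gave -4.53 to 25.0. CA12 went from -3.08 to 0.417 with list percentiles. CA9, CA11, CA13 and CA14 kept their direction in every alternative that gave a value. Leaving out 1 library, CA9 ran from -21.9 to -8.30, CA11 from -12.3 to -9.45, CA12 from -5.59 to -1.31, CA13 from 5.02 to 22.3 and CA14 from -22.2 to -6.93. With list percentiles CA11 was called for R2 against naïve, where 9.1% of all genes were, and CA9, CA11 and CA13 for R1 against R2, where 60.8% of all genes were. Ranking by fold gave identical values. With the replicate block, as without it, none of the 6 fitted members was called.

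In the R2 libraries a peak needed 6.68 times the background or more. Where R2 lacked a start peak, the scaled summits ran from 4.83 to 8.15 tags for CA8 and from 4.09 to 7.98 for CA9. They ran from 6.10 to 9.31 for CA12 and from 2.50 to 9.98 for CA5B. In the second R2 library they ran from 5.46 to 9.51 for CA14 and from 6.68 to 10.6 for CA13. A call needed 6 tags, and whether depth accounts for the missing peaks was not tested. Summits near another gene's start carry the ranks of CA9, CA11, CA13 and CA14. For CA13 that summit also lies just before the annotated beginning of the gene.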

Other observations

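A few listed genes passed the test for R1 alone, and they were chosen after their values were seen. Over all fitted genes 7.07% were called for R1 against naïve and 0.823% for R2 against naïve. The shares were 1.36% for R1 against R2 and 3.39% for all resistant cells against naïve. Of the 24 tested hypoxia genes 13 had a positive difference between R1 and naïve cells, with a median of 7.48 points. Of the 20 transport genes 13 did, with a median of 7.03, and the median of all genes was -0.406. For R1 against naïve cells, VEGFA, the vascular growth factor that hypoxia induces, fell by 35.8 points (adjusted p = 0.0365 by limma), and ARNT, the partner of the hypoxia-inducible factors, fell by 14.4 points (adjusted p = 0.0369). SLC4A1, the red cell anion exchanger that works with cytosolic carbonic anhydrase, fell by 34.7 points (adjusted p = 0.0349), while SLC16A7 rose by 30.8 points (adjusted p = 0.0295). ARNT also differed between R1 and R2, by -19.4 points (R1 minus R2, adjusted p = 0.0362). NDRG1 was the 1 gene of these lists called in both resistant lines, at 66.1 points in R1 and 62.9 points in R2 (adjusted p = 0.0196 and 0.0433). The R2 call was lost with the replicate block (adjusted p = 0.0611), with the 5 Mb median taken off (0.165) and without any 1 resistant library (0.0782 to 0.162). Whether the R1 differences of VEGFA, ARNT and SLC4A1 from naïve cells are unlike those of R2 was tested only through the comparison of R1 with R2, in which ARNT alone of these 3 was called. In 7 tested mesenchymal markers 1 was called for R1, VIM, which fell by 45.1 points (adjusted p = 0.0496), while 3 had a positive difference and the list's median was -8.69. In 6 tested markers of other cells 1 was called for the resistant cells, PECAM1, which fell by 30.2 points (adjusted p = 0.0488), while 2 had a positive difference and the median was -2.95. The called genes of this paragraph other than NDRG1 passed 0.05 in 6 to 11 of the 16 to 18 settings run for each.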
